A study of Equus caballus with 14 samples.

Results

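ENSECAG00000028173 and ENSECAG00000035318 are 2 abundant transcripts of the equine corpus luteum that were at high levels in every biopsy of some mares and at low levels in every biopsy of others. They are the 2 members described here, out of 30371 genes in the count table. They were chosen because their levels divided the animals in this way, so the division itself is a description and carries no test. The choice did not directly use the change from day 11 to day 13 within a gland or the difference between pregnant and non-pregnant biopsies of 1 mare. Those were tested. A choice by the level of each animal does, however, limit how large a change within a mare can be. The members and tests were also chosen with earlier results of these data known. Neither Ensembl identifier has a symbol in the reference table that was at hand. No function, position or sequence is therefore given for them.

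The corpus luteum is the gland that forms from the ovulated follicle and secretes progesterone. In a mare that does not conceive the gland is brought to regression late in the cycle by prostaglandin from the uterus, and in early pregnancy it is kept. It holds steroid-secreting luteal cells together with endothelial, stromal and immune cells, so a biopsy is a mixture. In such bulk tissue fewer cells of a type and less RNA per cell cannot be told apart.

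The samples are transvaginal needle biopsies of corpora lutea from light breed mares, taken on day 11 or day 13 after ovulation and labelled pregnant or non-pregnant. Non-pregnant biopsies gave 4 libraries at day 11 (NP11) and 4 at day 13 (NP13), and pregnant biopsies gave 4 (P11) and 2 (P13) on these days. The 14 libraries came from 6 mares and 8 corpora lutea. Kate and Emma gave 4 libraries each from 2 glands, Kiwi and Cornelia 2 each from 1 gland. Roanie and Gisela gave a single day 11 library. For 6 glands both days were sampled, so no gland was first biopsied at day 13, and day and earlier biopsy cannot be told apart. The first gland of Kate is labelled pregnant at day 11 and non-pregnant at day 13. No treatment or age is named for any group, and no marker gene of luteal or other cells could be matched, so the labelled tissue was not checked against markers.

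Library totals ran from 20182039 to 32186736 counts, with 15437 genes abundant enough to be tested. Levels are given in CPM, counts scaled to a common library total, with TMM, edgeR's correction for library composition. The values of 1 gene can be compared across libraries on this scale, but those of different genes cannot, because gene length is not removed. The members had at least 113 counts in every library, and the depth was therefore not a limit on any of their levels.

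ENSECAG00000028173 was high in Roanie, Cornelia and Kate and low in Emma, Gisela and Kiwi. The single library of Roanie held 1200.0 CPM, and those of Cornelia held 1177 CPM at day 11 and 996 CPM at day 13. The first gland of Kate went from 883 to 1243 CPM between the days, and the second from 702 to 860 CPM. On the low side, the first gland of Emma stood at 10.3 and 11.5 CPM, and the second at 6.42 and 9.60 CPM. Gisela stood at 6.14 CPM, and Kiwi at 3.77 and 5.50 CPM. No library lay between 11.5 and 702 CPM, a gap of 61.2-fold, whereas the 7 high libraries spanned 1.77-fold and the 7 low libraries 3.04-fold. The lowest value, in Kiwi at day 11, rested on 113 counts, with an exact Poisson 95% interval of 3.11 to 4.54 CPM that covers counting error only. The gene was thus measured well above 0 in the low animals. Among the 15437 genes its CPM ranked between 100 and 214 in the high libraries and between 8093 and 10786 in the low ones. Such a rank is one of reads, which gene length affects.

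ENSECAG00000035318 was high in the same 3 mares and also in Gisela. Cornelia held 3295 CPM at day 11 and 2931 CPM at day 13, and Roanie held 3001 CPM. The first gland of Kate stood at 2558 and 3155 CPM on the 2 days and the second at 2199 and 2477 CPM. Gisela, at 1671 CPM, was the lowest of the 8 high libraries. Emma held 86.2 and 95.0 CPM in the first gland and 56.0 and 93.2 CPM in the second. Kiwi held 17.6 CPM at day 11 and 25.1 CPM at day 13. The gap between the 2 sides was 17.6-fold, against a spread of 1.97-fold among the high libraries and 5.41-fold among the low ones. On the low side the mares did not overlap either: the 4 libraries of Emma were all above the 2 of Kiwi. At its highest the gene ranked 30 by CPM among those tested, with 0.331% of all counts in Cornelia at day 11. At its lowest, in Kiwi, it ranked 6613.

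**Figure D1:**
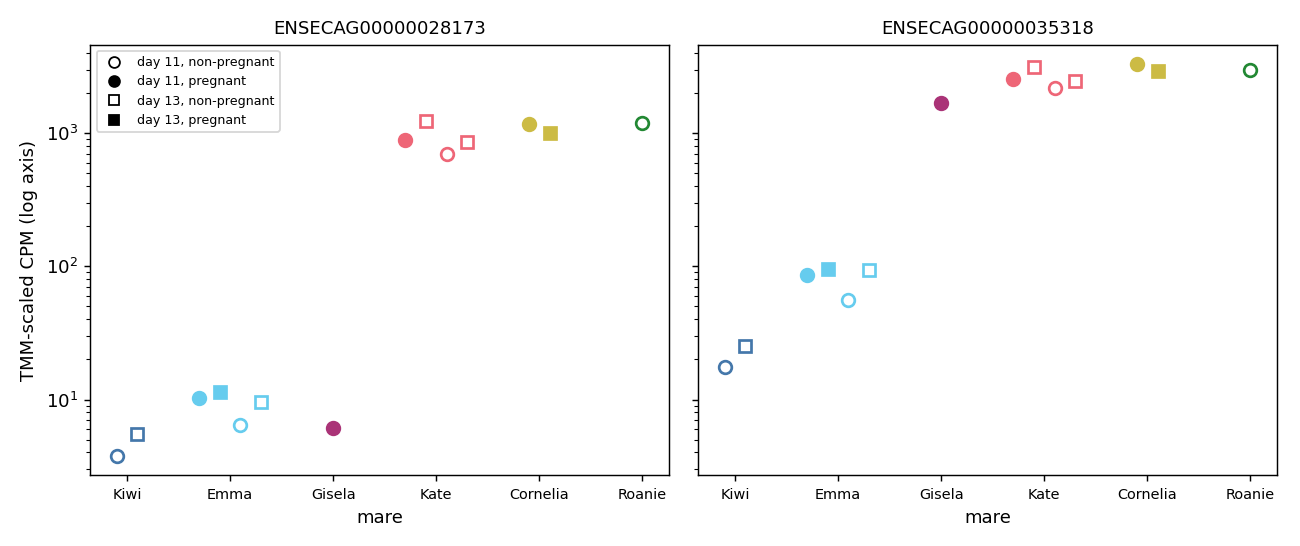
Abundance of ENSECAG00000028173 (left) and ENSECAG00000035318 (right) in TMM-scaled CPM on a log axis, with 1 point per library, by mare. Circles are day 11, squares day 13, filled symbols pregnant and open symbols non-pregnant. All libraries of a mare lie on 1 side of the gap, and Gisela is low for the first gene and high for the second.

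The order of the mares shows how much of it rests on gaps beyond the spread within an animal. For ENSECAG00000028173 the mean level was 1087 ± 128 CPM (SD, n = 2 libraries) in Cornelia and 922 ± 229 CPM (SD, n = 4 libraries of 2 glands) in Kate, with overlapping ranges, and Roanie lay inside the range of Kate. On the low side it was 9.46 ± 2.16 CPM (SD, n = 4 libraries of 2 glands) in Emma, and Gisela lay just below the range of Emma. Kiwi, at 4.64 ± 1.22 CPM (SD, n = 2 libraries), was below all others. For ENSECAG00000035318 the mean was 3113 ± 257 CPM (SD, n = 2 libraries) in Cornelia, 2597 ± 402 CPM (SD, n = 4 libraries of 2 glands) in Kate, 82.6 ± 18.2 CPM (SD, n = 4 libraries of 2 glands) in Emma and 21.3 ± 5.30 CPM (SD, n = 2 libraries) in Kiwi. Cornelia, Roanie and Kate again overlapped, while Gisela, Emma and Kiwi followed below them without overlap. Libraries of 1 gland and glands of 1 mare share an animal and are not independent.

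Within a mare the SD of log2 CPM was 0.34 for ENSECAG00000028173 and 0.29 for ENSECAG00000035318. The median over 8526 genes averaging 10 CPM or more was 0.14, and 92.8% and 89.6% of those genes varied less within a mare than these members did. Over all 14 libraries the SD was 3.71 and 2.99, the third and the fifth highest of the 8526 genes, which restates the choice. Of 190 genes that reached 1000 CPM in at least 1 library, 3 fell below 100 CPM in another: the 2 members and ENSECAG00000008236. That gene did not divide the animals. It was at 1558 CPM in Kiwi at day 11 and 167 CPM in the same gland at day 13, and its other 13 libraries ran from 67.7 to 418 CPM. The next gene outside, ENSECAG00000029274, ran from 125 to 1122 CPM.

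Gisela was the 1 mare in which the members took different sides. Her library held 194 counts of ENSECAG00000028173 and 52762 counts of ENSECAG00000035318, or 0.368 reads of the first per 100 of the second (95% interval 0.319 to 0.423, counting error only). In the 13 other libraries that number ran from 10.3 to 40.0, so the lowest of them was 28.0-fold above Gisela. Gene length cancels when this ratio is compared across libraries.

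Apart from Gisela, the libraries of a mare had similar ratios. It was 40.0 in Roanie, 34.0 to 35.7 in Cornelia and 31.9 to 39.4 in Kate, all high for both genes. In the mares that were low for both genes it was smaller and differed between them, at 21.5 and 21.9 in Kiwi and 10.3 to 12.1 in the 4 libraries of Emma. Within a mare the highest and lowest ratio differed by 1.02-fold in Kiwi, 1.05-fold in Cornelia, 1.17-fold in Emma and 1.23-fold in Kate. In Emma and Kate these libraries came from 2 glands each. The mares Emma and Kiwi did not overlap, although their levels of the members were within the low side for both genes.

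**Figure D2:**
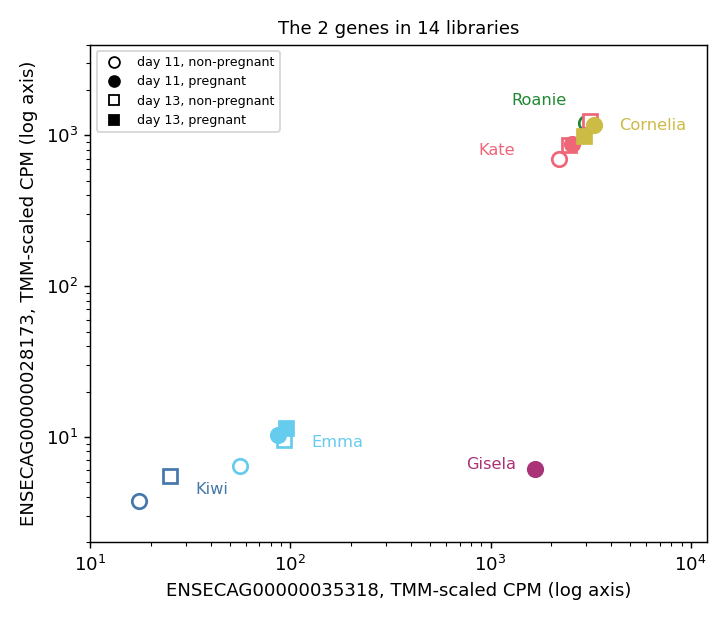
Abundance of ENSECAG00000028173 against ENSECAG00000035318 in TMM-scaled CPM, both on log axes, with 1 point per library coloured by mare and symbols for day and status as in the key. Libraries of a mare cluster, 3 mares lie high for both genes, Emma and Kiwi low for both, and Gisela alone at 6.14 and 1671 CPM.

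**Figure D3:**
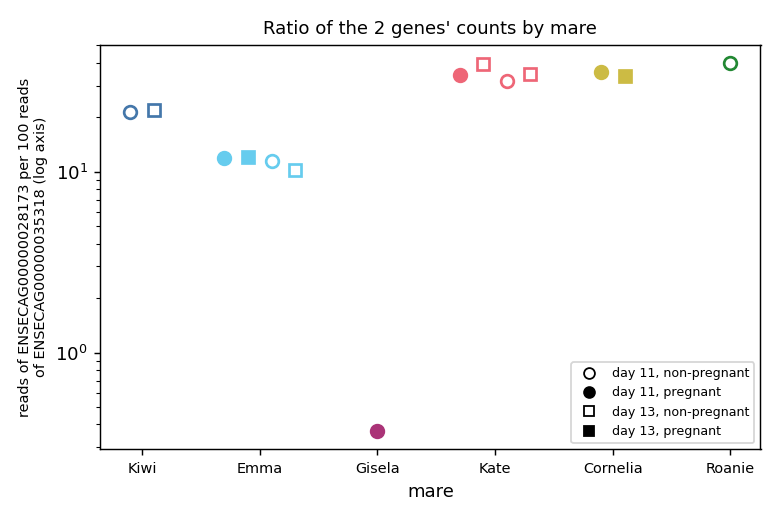
Reads of ENSECAG00000028173 per 100 reads of ENSECAG00000035318 in each library, on a log axis, by mare, with symbols for day and status as in the key. Values of a mare lie close together, from 10.3 to 12.1 in Emma and at 21.5 and 21.9 in Kiwi, and Gisela lies at 0.368.

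High and low animals were spread over the study's groups. For ENSECAG00000028173, 2 of 4 NP11, 2 of 4 NP13, 2 of 4 P11 and 1 of 2 P13 libraries were on the high side, and each group mean was smaller than its SD. In NP11 the gene stood at 478 ± 583 CPM (SD, n = 4) and in P11 at 519 ± 602 CPM (SD, n = 4). For ENSECAG00000035318 the high side held 2 of 4 NP11, 2 of 4 NP13, 3 of 4 P11 and 1 of 2 P13 libraries. The members were chosen for levels that divide the animals, so a mare on 1 side in all biopsies largely follows from the choice. Within that limit, the pregnant and the non-pregnant gland of Emma were both low for both genes, and those of Kate both high. By biopsy date, Emma was low for both genes in June and in August, and Cornelia, sampled in August, was high. An effect of the date was not tested. The 2 libraries of the gland of Kate whose status label changes fell on the same side as those of her second gland.

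Both genes were higher at day 13 than at day 11 in 5 of the 6 glands sampled on both days, and lower in the gland of Cornelia. ENSECAG00000028173 went from 1177 to 996 CPM in Cornelia, a ratio of 0.846. In the high glands of Kate its ratio of day 13 to day 11 was 1.41 and 1.22. In the low glands the ratio was 1.11 and 1.49 in Emma and 1.46 in Kiwi. ENSECAG00000035318 followed gland by gland, with ratios of 0.890 in Cornelia, 1.23 and 1.13 in Kate, 1.10 and 1.67 in Emma and 1.43 in Kiwi. Of the 6 glands, Emma's first in ENSECAG00000028173 was the single case whose 95% counting interval, 0.950 to 1.30, included 1. No gland changed sides between the days, which the choice by animal made likely. The largest ratio was 1.67, beside gaps of 17.6- and 61.2-fold. Within the high side the order did change: Cornelia was above the first gland of Kate at day 11 in both genes and below it at day 13. The directions were the same in all 6 glands with scaling by library total and with RLE size factors.

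**Figure D4:**
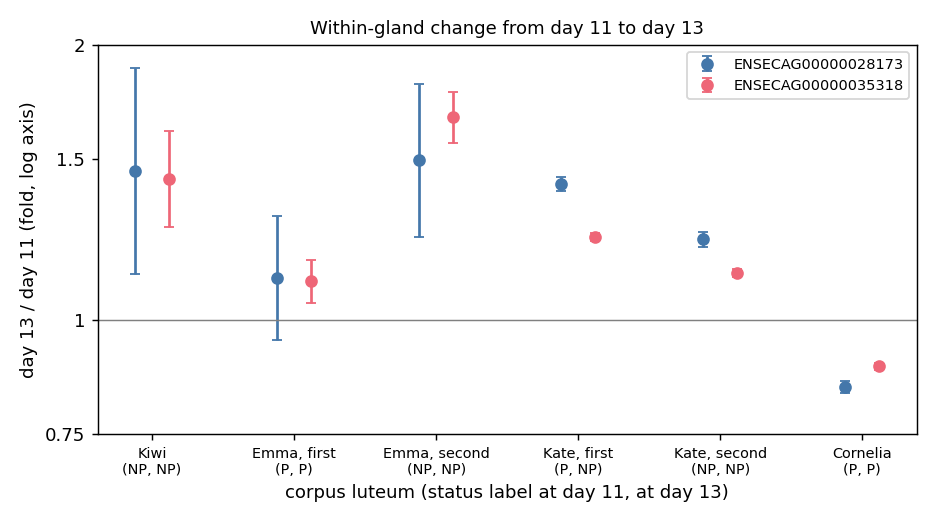
Ratio of the day 13 to the day 11 level (TMM-scaled CPM, log axis) of both genes in each of the 6 corpora lutea sampled on both days, with the status label at each day under the name. Bars are 95% intervals for counting error only, and the line marks a ratio of 1. The 2 genes lie on the same side of 1 in every gland, below it only in Cornelia.

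Among 13000 genes averaging 1 CPM or more, 11.2% were higher at day 13 in at least 5 of the 6 glands. The sign pattern of ENSECAG00000028173 over the 6 glands, which ENSECAG00000035318 shares, was seen in 3.84% of the other genes. The 6 glands belong to 4 mares and share their sampling days, so these shares describe the libraries.

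In edgeR's quasi-likelihood test with the gland as a block, the day effect over the 6 glands was a log2 change of 0.28 ± 0.11 (SE) for ENSECAG00000028173 and 0.28 ± 0.11 (SE) for ENSECAG00000035318. The unadjusted p was 0.0284 and 0.0292, where 6.40% of all 15249 genes tested lay under 0.05. The Benjamini-Hochberg adjusted p from edgeR was 0.691 for each, so neither passed the threshold of 0.05, which 0.00656% of genes (1 gene) did. Without the gland of Cornelia the log2 change was 0.40 for ENSECAG00000028173 and 0.36 for ENSECAG00000035318, and the adjusted p in edgeR was 0.202 and 0.319. Without Emma's second gland it was 0.23 and 0.18, with an edgeR adjusted p of 0.655 and 0.661 and an unadjusted p of 0.0852 and 0.0896. Without Kate's first gland, whose label changes between the days, it was 0.23 and 0.27 (unadjusted edgeR p 0.0907 and 0.0619). Without Kiwi it was 0.24 and 0.23 (0.0754 and 0.0848). It was 0.28 and 0.30 without Kate's second gland (0.0580 and 0.0402), and 0.31 and 0.31 without Emma's first (0.0394 and 0.0404).

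The day effect was also estimated for each status. In the 3 glands with a non-pregnant label throughout (Kiwi, the second of Kate and the second of Emma), the log2 change was 0.46 ± 0.13 (SE) for ENSECAG00000028173 and 0.47 ± 0.14 (SE) for ENSECAG00000035318, higher at day 13 in 3 of 3 glands. The edgeR adjusted p was 0.951 and 0.997, with unadjusted values of 0.00783 and 0.0102. Under an adjusted p of 0.05 there were 0.0259% of genes and under an unadjusted p of 0.05 there were 3.19%. In the 2 pregnant glands, Emma's first and Cornelia's, the log2 changes were -0.06 ± 0.15 and -0.02 ± 0.17 (SE), with 0.0972% of genes past the adjusted threshold and the members at an edgeR adjusted p of 1. The 2 glands moved in opposite directions, and the 95% intervals ran from -0.40 to 0.29 and from -0.40 to 0.37.

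Whether the day effect differed by status was tested itself, as pregnant minus non-pregnant. It was -0.51 ± 0.19 (SE) for ENSECAG00000028173 and -0.49 ± 0.22 (SE) for ENSECAG00000035318 on the log2 scale. The edgeR adjusted p was 1 for each, the unadjusted p was 0.0313 and 0.0568, and 0% of genes passed the adjusted threshold, with 1.58% under an unadjusted 0.05. A different response of the members by status was therefore not shown. Without either library of Cornelia the differences were -0.30 and -0.33.

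A model without the block was of little use for these genes. There the day effect in non-pregnant libraries was 0.15 ± 1.96 (SE) for ENSECAG00000028173 and 0.12 ± 1.57 (SE) for ENSECAG00000035318, as the spread between mares is part of the error there. With the gland as a block the SEs were 0.13 and 0.14.

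The same holds for status, which can be compared within Emma and within Kate. At day 11 ENSECAG00000028173 stood at 10.3 CPM in Emma's pregnant gland and 6.42 CPM in the non-pregnant one, a ratio of 1.61. In Kate it stood at 883 and 702 CPM, a ratio of 1.26. ENSECAG00000035318 had ratios of 1.54 in Emma (86.2 and 56.0 CPM) and 1.16 in Kate (2558 and 2199 CPM). Both genes were thus somewhat higher in the pregnant gland at day 11 in the 2 mares, on either side of the gap. In both mares the pregnant gland was the earlier one, so status cannot be told apart from the order and date of the glands. At day 13 the ratio in Emma was 1.20 for ENSECAG00000028173 and 1.02 for ENSECAG00000035318. The 2 glands of Kate at day 13 are both labelled non-pregnant, and there the first gland was 1.45-fold and 1.27-fold above the second, further apart than her pregnant and non-pregnant glands were at day 11.

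With the mare as a block, the pregnant minus non-pregnant difference at day 11 was 0.56 ± 0.19 (SE) for ENSECAG00000028173 and 0.46 ± 0.15 (SE) for ENSECAG00000035318 on the log2 scale. The edgeR adjusted p was 0.908 for each and the unadjusted p was 0.0150 and 0.0140. Only Emma and Kate carry both labels, in each with the pregnant label in the earlier gland alone. The model has no term for the gland or for the order of the glands. Day 11 and day 13 libraries of 1 gland thus count as independent, and the SE and p can be too small. An adjusted p under 0.05 was reached by 0% of genes and an unadjusted one by 4.99%. Without the day 11 library of Emma's second gland the differences were 0.47 and 0.30, with an edgeR adjusted p of 1 and an unadjusted p of 0.0845 and 0.107. They rose to 0.79 and 0.59 without the P11 library of Kate, and to 0.71 and 0.55 without both libraries of that gland. Emma is then the only mare with both labels, here and where the same libraries are left out of the average over days. Averaged over the days the differences were 0.28 ± 0.16 and 0.22 ± 0.13 (SE), with an edgeR adjusted p of 0.938 for each. Again 0% of genes passed the threshold, and 4.72% had an unadjusted p under 0.05. Single libraries moved these averages both ways. Without the P13 library of Emma they were 0.06 and 0.06, and without the day 11 library of Emma's second gland 0.21 and 0.10. Without the P11 library of Kate they were 0.48 and 0.32, and without both libraries of that gland 0.47 and 0.31, with unadjusted p-values of 0.0184 and 0.102 and an edgeR adjusted p of 1.

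Other genes were searched for the same division. A gene was counted where its lowest library on one side was above its highest on the other, in log2 CPM, and its mean was 1 CPM or more. For ENSECAG00000028173, 113 of 12999 genes (0.869%) divided the mares the same way and 76 (0.585%) the opposite way. For ENSECAG00000035318, whose division puts Gisela on the high side, they were 46 (0.354%) and 60 (0.462%). Since the mares were divided by the members' own levels, these numbers describe likeness. Most of the gaps were small: the median was 0.05 and 0.07 on the log2 scale for the first division and 0.04 and 0.10 for the second, against 5.93 and 4.13 for the members themselves. Of the genes in the same direction, 17 of the first 112 (other than the members) were among the second 46, and 16 of the 76 opposite genes were among the 60. With 1 library left out a gene meets fewer conditions. A rise in these numbers is thus built into the count and does not show that the genes depended on a library. Leaving out 1 library took the 113 to 184 (Roanie) or 170 (Emma's first gland or Kiwi, at day 11), and the 76 to 168 (Cornelia at day 11), 138 (Emma's first gland at day 11), 125 (Roanie), 122 (either library of Kiwi) or 120 (Gisela). The 46 became 142 without Gisela, 95 or 77 without Kiwi at day 11 or day 13, 73 without Roanie and 71 without Emma's first gland at day 11. The 60 became 120 without Gisela, 104 or 92 without Kiwi at day 11 or day 13, and 96 without Emma's first gland at day 11. No other library moved these numbers by more than 1.5 times.

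The largest gap for the first division was in a gene that ran the opposite way. ENSECAG00000017205 stood at 8.36 and 11.1 CPM in Emma's first gland, 11.3 and 12.7 CPM in the second, 10.4 and 13.0 CPM in Kiwi and 5.04 CPM in Gisela. In the mares high for ENSECAG00000028173 it was near 0. Both libraries of Cornelia had 0 counts, Roanie had 1 count, and those of Kate had 5, 1, 3 and 1 counts, at most 0.211 CPM. Its gap of 4.17 on the log2 scale was the 1 gap over 1 among the genes that followed this division in either direction. Its correlation with ENSECAG00000028173 over the 14 libraries, r = -0.98 in log2 CPM, was the lowest of all 12999 genes. The points share mares and glands, and the 2 sides make up most of the spread.

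ENSECAG00000033388 had the largest gap in the same direction, 0.80, and took 3 levels. Kate held 293 to 505 CPM, Cornelia 218 and 330 CPM and Roanie 230 CPM. The 4 libraries of Emma held 117 to 125 CPM, and Gisela and Kiwi had 0 counts in their 3 libraries. Emma, low for both members, was thus intermediate in this gene, and Gisela was without a count although ENSECAG00000035318 was high there. The other genes with the largest gaps in the same direction were less divided: ENSECAG00000012037, with a gap of 0.46, ran from 42.0 to 66.7 CPM on the high side and from 21.5 to 30.4 CPM on the low side. ENSECAG00000000530, with a gap of 0.71, had at most 4.57 CPM, and ENSECAG00000020897 ran from 11.8 to 22.5 CPM over all libraries. In the opposite direction ENSECAG00000006012 stood at 484 to 985 CPM in the mares low for ENSECAG00000028173 and at 210 to 356 CPM in the others, a gap of 0.44. ENSECAG00000023905, with a gap of 0.40, fell into more than 2 levels. It was at 104 to 128 CPM in Emma, 59.6 and 61.9 CPM in Kiwi, 45.3 CPM in Gisela, 31.4 and 34.2 CPM in Cornelia, and 5.22 to 11.5 CPM in Kate and Roanie. ENSECAG00000041789 and ENSECAG00000008152, the remaining pair, had at most 8.22 CPM.

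For the division of ENSECAG00000035318 the 4 gaps over 1 were all in the opposite direction. The abundant ENSECAG00000027672 stood at 2398 to 4309 CPM in Emma and 2031 and 2732 CPM in Kiwi, and at 631 to 978 CPM in Kate, Cornelia, Roanie and Gisela, a gap of 1.05. ENSECAG00000023606 stood at 142 to 230.4 CPM in Emma, 154 and 199 CPM in Kiwi and 21.5 to 54.9 CPM in the others, with the largest gap, 1.37. The gaps of ENSECAG00000016428 and ENSECAG00000032204 were 1.29 and 1.15, at levels of up to 10.3 and 6.11 CPM. In the same direction the gaps did not exceed 0.74, in ENSECAG00000000947, which had at most 2.74 CPM. ENSECAG00000013176 had the highest CPM of the first 5, at 62.1 to 115 CPM against 25.3 to 49.6 CPM. ENSECAG00000010494 and ENSECAG00000001013 had at most 4.39 and 22.4 CPM.

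**Figure D5:**
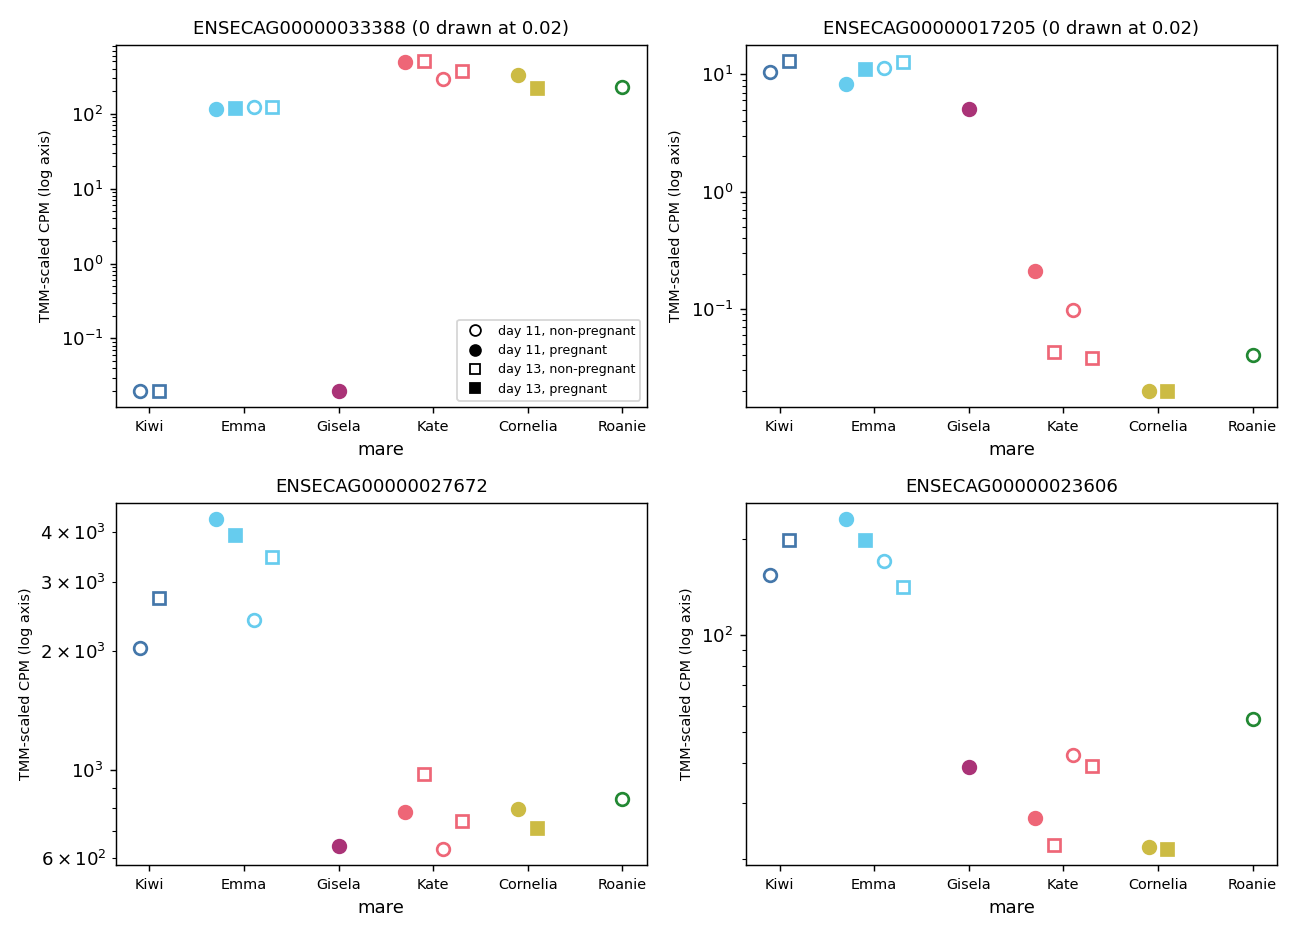
Abundance in TMM-scaled CPM (log axes) of the genes with the largest gaps across the division of ENSECAG00000028173 in the same (ENSECAG00000033388) and the opposite direction (ENSECAG00000017205), and of the opposite genes ENSECAG00000027672 and ENSECAG00000023606 of the division of ENSECAG00000035318. Each point is 1 library, by mare, with symbols for day and status as in the key, and counts of 0 are drawn at 0.02. Gisela lies with Kiwi in the first gene, and with Kate, Cornelia and Roanie in the lower pair.

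Likeness was also measured as Pearson's r of log2 CPM over the 14 libraries. With ENSECAG00000028173 the highest values were 0.94 in ENSECAG00000013169, 0.93 in ENSECAG00000016716, 0.93 in ENSECAG00000020897, 0.93 in ENSECAG00000012037 and 0.92 in ENSECAG00000010156. These genes differed far less between mares than the member: ENSECAG00000013169 ran from 68.2 to 113 CPM. After ENSECAG00000017205, the lowest r was -0.92 in ENSECAG00000010126, followed by ENSECAG00000008152, ENSECAG00000023946 and ENSECAG00000021241. With ENSECAG00000035318 the highest r was 0.91 in ENSECAG00000015861, which ran from 37.6 to 46.4 CPM, then ENSECAG00000009809, ENSECAG00000021550, ENSECAG00000021548 and ENSECAG00000001013. The lowest was -0.93 in ENSECAG00000023606, then ENSECAG00000010126, ENSECAG00000017205, ENSECAG00000024745 and ENSECAG00000015054. These lists depended on the measure: ranked by Spearman's rho or by 1 value per mare, at most 1 of each 5 genes was among the first 5. They share depth, mare and gland across the points, and are given as a description.

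The genes named for their likeness, with ENSECAG00000035318 itself the 30 chosen by the rule, were tested for day and status in the same fits. None passed an adjusted p of 0.05 in any of the 6 comparisons in edgeR, and their smallest adjusted p was 0.644. An unadjusted p under 0.05 was reached by 3 of the 30 for the day effect over all glands, where 6.40% of all genes reached it, and by 3 for status at day 11, where 4.99% did. It was reached by 2 of the 30 in each of the other comparisons: the day effect in non-pregnant glands (3.19% of all genes) and in pregnant glands (4.13%), the difference between those (1.58%) and status averaged over the days (4.72%). ENSECAG00000035318 itself was 1 of them for the day effect over all glands and in non-pregnant glands, and for status at day 11.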

How the data were processed

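Values are raw counts of reads per gene in 14 poly(A) RNA-seq libraries, as deposited by the authors. Trim Galore, STAR and the build EquCab3.0 are named in the submitters' processing notes. Versions, counting tool and annotation are not given there, so the treatment of reads from near-identical genes is unknown, and counts of genes with such copies are uncertain.

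Columns were matched by library name. The titles give mare, date, day and status but do not name the gland. Libraries of 1 mare whose dates form a day 11 and day 13 pair were taken as 1 gland. The library names also number the later pairs of Kate and Emma. Replicate numbers only name samples. The filter was edgeR's filterByExpr, scaling was by TMM, and log2 CPM used a prior count of 2. Tests used edgeR 4.0.16 (quasi-likelihood, R 4.3.3) on all genes, with the gland as a block for day and the mare for status, and Benjamini-Hochberg adjustment. SEs were derived from the F statistics. Intervals for counts are 95% exact Poisson, and ratios use a log-normal approximation. Alternatives were RLE size factors, no low-count filter, DESeq2 1.42.0, limma 3.58.1 (voom), no block, other blocks and leaving out libraries. Mares were divided at the largest gap between their mean log2 CPM. The genes named were the 5 largest gaps and the 5 most extreme correlations in each direction. The members, lists and tests were chosen with earlier results of these data known. Scripts were tested on simulated counts. Gene lists and cell type markers were not used, because the RefSeq gene table matched none of the identifiers.

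Only spread between these libraries is measured by the p-values, and glands of 1 mare are not independent animals.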

Additional observations from a re-analysis of the deposited data

Results flagged for a closer look

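In groups of 4 libraries, single values of the members and of the genes with the largest gaps were compared with the other 3, in 57 sets. In 5 sets 1 library stood apart, and neither member was among them. The 4 genes concerned had been picked because they separate Emma and Kiwi from the other mares. In 4 of the 5 sets the library was that of Emma's first gland at day 11 (P11 replicate 1), the single P11 library from those 2 mares, so it stood apart through the choice of the genes. The share of about 1 in 20 that chance would set apart is therefore no measure for these sets, and nothing is read from their number. It held 0 CPM of ENSECAG00000000947 against 1.55 to 1.86 CPM in the other P11 libraries, 8.583 CPM of ENSECAG00000016428 against 0 to 0.283, 230.4 CPM of ENSECAG00000023606 against 21.8 to 38.7, and 4309 CPM of ENSECAG00000027672 against 641 to 796. In NP13, Emma's second gland (replicate 4) held 10.28 CPM of ENSECAG00000016428 against 0.152 to 0.995.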

How the results depend on the processing

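Of 242 log2 changes of the members under the alternatives, 236 kept their direction and 0 passed the threshold, with a smallest adjusted p of 0.202. The 6 that turned were day effects in pregnant glands near 0: with the mare as the replicate block ENSECAG00000028173 was at 0.03179 and ENSECAG00000035318 at 0.03719, and leaving out 1 library gave -0.2416 to 0.1533 and -0.1688 to 0.1414, the ends being Cornelia alone and Emma alone.

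The number of genes called for the day effect over 6 glands was 28 with no low-count filter, 114 in DESeq2, 0 in limma, 0 with no replicate block and 62 when Kate's first gland was left out. Leaving out 1 library gave 0 to 62. For non-pregnant glands it was 32, 48 and 0 with no filter, in DESeq2 and with no block, 0 with the mare as the block, and 0 to 4 without 1 library. For pregnant glands it was 62 with no filter, 68 in DESeq2, 2 in limma, 0 with no block, 0 with the mare as the block, and 0 to 27 without 1 library. DESeq2 called 2 genes for the difference of day effects, 8 for status averaged over days and 5 for status at day 11. The last was 1 with no filter and 0 to 1 without 1 library.

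The gap between the sides of ENSECAG00000035318 was 4.135 to 4.531 on the log2 scale without 1 library. Without 1 library, the genes that followed the division of ENSECAG00000028173 numbered 117 to 184 in the same and 84 to 168 in the opposite direction, and for ENSECAG00000035318 they numbered 47 to 142 and 64 to 120. With fewer libraries a gene meets fewer conditions. With library total scaling the 46 became 77, and with a minimum mean of 10 CPM the 60 became 38.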
